A study of Homo sapiens with 6 samples.

Results

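Vimentin was followed across 3 lines of Caco-2 cells, with keratin 8 beside it. It was 1 of 24350 gene probes on each array and was found by its ID, GI_4507894-S, a RefSeq GI number. The keratin 8 probe was found in the same way, by GI_4504918-S. The files do not pair probe IDs with gene names and the RefSeq table used here holds no GI numbers, so both names rest on the GI numbers alone. Keratin 18 was not analysed here, since its ID GI_4557887 matched 0 probes. The vimentin probe was chosen with its values on these arrays known, for its high level in Ha-Ras cells over both other lines. Its levels are therefore a description and carry no test.

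Caco-2 is an established human colon adenocarcinoma line whose cells form an epithelial sheet. The control group was Caco-2 itself, the Ki-Ras group the transformed line CacoK15 and the Ha-Ras group the transformed line CacoH2, with 2 arrays each (A and B) and 6 in all. All 3 lines were left untreated and were grown to 70% confluence. The sample labels call CacoK15 fast growing, and they call the B sample of CacoH2 fast growing with features of an epithelial-to-mesenchymal transition. The A sample of CacoH2 carries no such note. Each Ras isoform was represented by 1 line, so Ras isoform and line cannot be told apart. The sources used here do not name the Ras alleles or vectors. The 2 samples of a line are biological replicates by the submitters' design, but how they were separated is not given. The p-values therefore set a difference against the spread between these samples, which the fit draws partly from all probes tested.

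Vimentin and keratins are proteins of intermediate filaments, the ropelike part of the cytoskeleton. Vimentin is the filament protein typical of mesenchymal cells such as fibroblasts. Keratin 8 assembles with keratin 18 into the filaments of simple epithelia, including the lining of the gut. Epithelial cells that undergo an epithelial-to-mesenchymal transition commonly gain vimentin and often lose keratins, and vimentin is a widely used marker of that state.

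The vimentin probe was bright in Ha-Ras cells and lay within background in Ki-Ras and control cells. In Ha-Ras cells its deposited signal, a mean fluorescence over the beads of a probe, was 7912.1 intensity units on array A and 7408.6 on array B. In Ki-Ras cells it was 75.0 and 75.6, and in control cells 65.0 and 63.5. Both Ha-Ras arrays were thus high, the other 4 arrays were low, and no value of the Ha-Ras line overlapped those of another line. On the normalized scale, where the vimentin values did not overlap either, such a lack of overlap was common. It was seen for 77.0% of the probes tested between Ha-Ras and control cells and for 80.7% between Ha-Ras and Ki-Ras cells. The high level was present in both Ha-Ras samples, of which only B carries the transition note in the labels. Both are replicates of CacoH2, so the missing note does not show that sample A lacked those features. An array measures RNA pooled over all cells of a sample, so more vimentin-expressing cells and more vimentin RNA per cell cannot be told apart.

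The detection score, near 1 for bright probes, was 1 on both Ha-Ras arrays. It was 0.934 and 0.812 on the Ki-Ras arrays and 0.635 and 0.605 on the control arrays. Detection p was taken as 1 minus this score, and a probe counts as detected at 0.01 or less. The lowest detection p of vimentin outside the Ha-Ras line was 0.066, on Ki-Ras array A, so the probe was detected on 2 of 6 arrays. Between 47 and 59 beads carried the probe on each array.

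The background of each array, inferred from the detection p of all probes, had a mean of 62.1 to 69.8 intensity units and an SD of 6.88 to 7.56. The Ha-Ras vimentin signals lay 1058 and 1068 such SDs above it. The Ki-Ras signals lay 1.43 and 0.88 SDs above their own background, and the control signals 0.29 and 0.18. The Ki-Ras signals were the higher in this lower range and did not overlap the control ones, nor did the normalized values. Normalized values did not overlap for 76.0% of the probes tested between these lines, a set that vimentin entered only through its Ha-Ras signal. The background means were also higher on the Ki-Ras arrays, at 65.1 and 69.3 against 63.0 and 62.1, and their part in the vimentin gap was not tested. Both lines being undetected, no fold is given between them.

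**Figure D1:**
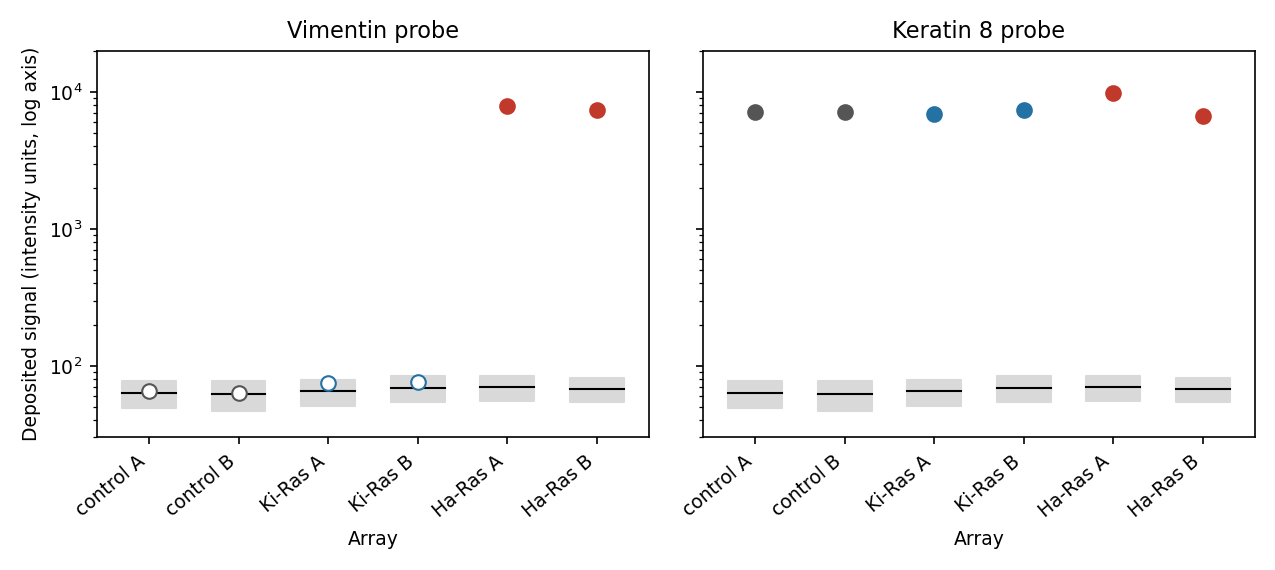
Deposited signal (intensity units, log axis) of the vimentin and keratin 8 probes on the 6 arrays. Points are arrays, filled where detected and open where not, bars (mostly smaller than the points) are the deposited bead spread (SD by its header, possibly a standard error of the bead mean), and the black line and grey band are each array's background mean and 2 SDs on either side; vimentin stands at 7912.1 and 7408.6 in Ha-Ras cells and within the band elsewhere, while keratin 8 is bright on all 6 arrays.

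After background correction and normalization, vimentin had a log2 intensity of 12.74 ± 0.066 (SD, n = 2) in Ha-Ras cells. It was at 4.71 ± 0.11 in Ki-Ras and 4.48 ± 0.021 in control cells, where no array detected it. Because the lower level is only known to be under the detection limit, the fold is a bound. The lower level entered it, on each array, as the lowest signal of any detected probe, unless vimentin itself was brighter. On this basis vimentin was at least 187-fold higher in Ha-Ras than in control cells and at least 188-fold higher than in Ki-Ras cells. Without background correction these bounds were 79.3 and 79.4.

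The deposited signals, with nothing subtracted, gave smaller ratios because they still contain the background. The mean Ha-Ras signal was 119 times the control mean and 102 times the Ki-Ras mean. Even the dimmer Ha-Ras array was 114 times the brighter control array and 98 times the brighter Ki-Ras array. The coefficient of variation between the 2 Ha-Ras samples was 4.65%, so the spread within the line was far smaller than the gap to the other lines. The brightest probe on any array reached between 18822 and 25341.4 units, so the vimentin signal was not near the top of the measured range.

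Keratin 8 was bright in all 3 lines, and no difference between lines passed the test. Its signal was 7176.4 and 7111.8 intensity units in control cells (A and B) and 6855.5 and 7324.8 in Ki-Ras cells. In Ha-Ras cells it was 9875.9 and 6671.8. Ha-Ras array A was thus the highest of the 6 and Ha-Ras array B the lowest, and the values of the Ha-Ras line overlapped those of both other lines. All 6 arrays had a detection score of 1 for keratin 8. Keratin 8, the only epithelial marker measured here, was thus detected in every sample, including the Ha-Ras samples that were bright for vimentin. That probe alone does not establish the cell type.

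On the normalized log2 scale keratin 8 was at 12.81 ± 0.26 (SD, n = 2) in Ha-Ras, 12.86 ± 0.023 in Ki-Ras and 12.85 ± 0.24 in control cells. In order of level the lines ran Ki-Ras, control and Ha-Ras, and neither pair of neighbours differed beyond its spread. By array, the normalized values were 12.99 and 12.63 in Ha-Ras, 12.88 and 12.85 in Ki-Ras, and 13.02 and 12.68 in control cells. The spread depended on the scale. The control signals were nearly equal as deposited (coefficient of variation 0.639%) and drew apart after normalization, while the Ha-Ras signals (27.4% as deposited) stayed apart. Array B of the control line had 25 beads for keratin 8, the fewest of the 6 arrays, where the others had 41 to 60.

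**Figure D2:**
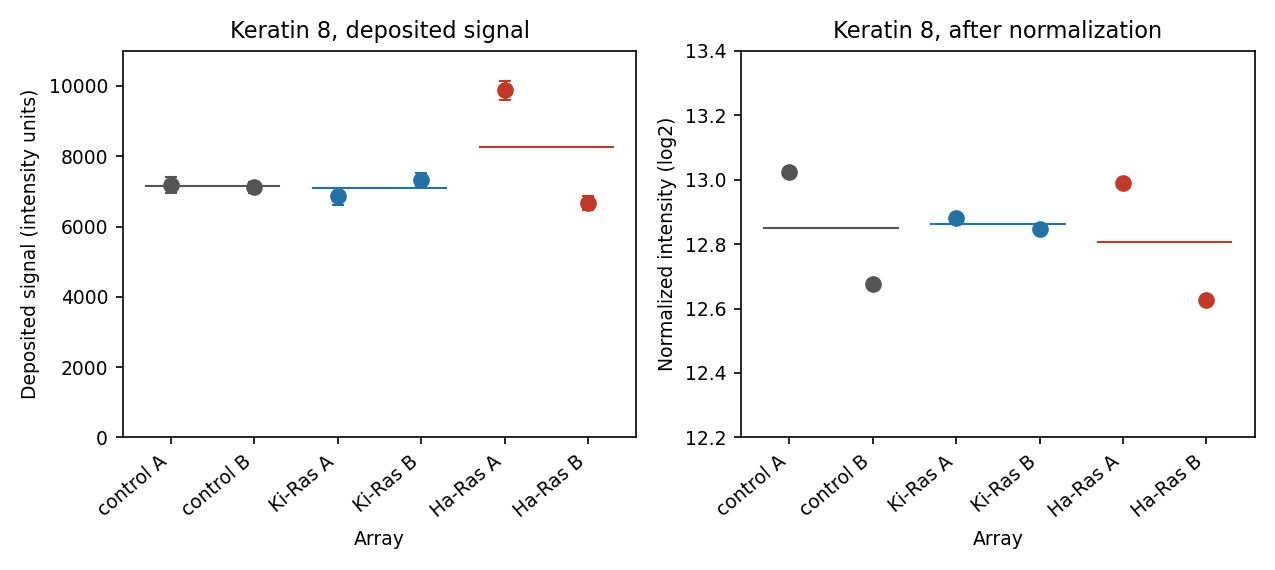
Keratin 8 on the 6 arrays, as deposited signal (left, intensity units, with bars for the deposited bead spread) and as normalized intensity (right, log2, axis not from 0). Points are arrays and lines are line means; Ha-Ras array A is the highest as deposited at 9875.9, and after normalization the line means lie between 12.81 and 12.86.

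The keratin 8 difference between Ha-Ras and control cells was -0.04 ± 0.18 (SE) on the log2 scale, with limma's adjusted p = 0.859. Its 95% interval ran from -0.45 to 0.36, which is 0.733 to 1.29 times the control level. The Ki-Ras difference from control was 0.01 ± 0.18, with limma's adjusted p = 0.957 and an interval of 0.762 to 1.34 times. Between Ha-Ras and Ki-Ras cells the difference was -0.06 ± 0.18, with limma's adjusted p = 0.812 and an interval of 0.726 to 1.27 times. Changes within these intervals could not be resolved with 2 arrays a line, so equal keratin 8 levels are not shown. With the arrays scaled to a common median the differences of Ha-Ras cells turned positive, to 0.16 against control and 0.15 against Ki-Ras cells (limma's adjusted p = 0.549 and 0.57). That scaling also moved the median difference of all tested probes to 0.20 and 0.30. Log2 of the deposited signals, without correction or normalization, gave positive differences too, 0.18 and 0.20 (limma's adjusted p = 0.408 and 0.372). The median differences of all tested probes were then 0.22 and 0.25.

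Keratin 8 was called in 0 of the 3 comparisons by limma, and its unadjusted p-values were 0.82, 0.943 and 0.765 in the same order. Differences were common on these arrays. Of the 10848 probes tested, 54.0% were called between Ha-Ras and control cells, 55.1% between Ki-Ras and control cells and 59.7% between Ha-Ras and Ki-Ras cells, at an adjusted p below 0.05. Of the 80 probes whose mean lay within 0.5 log2 units of that of keratin 8, 22.5%, 25% and 27.5% were called in these comparisons. This window was chosen after the data were seen. The median size of the difference between Ha-Ras and control cells was 0.24 on the log2 scale over these 80 probes and 0.51 over all probes tested. Keratin 8 varied more between samples of a line than most of them, with a pooled SD of 0.205 against a median of 0.0894 and a 90th percentile of 0.17.

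Vimentin and keratin 8 thus differed in how far they moved between the same samples. The comparison of Ha-Ras and control cells spread the tested probes around a median of 0.06 on the log2 scale, with 99% of them within 4.39 of 0 in either direction. The fitted vimentin difference of 8.26, which rests on a background value in control cells, lay outside that range, as its choice implies, and the keratin 8 difference of -0.04 lay close to the median. Of the tested probes, 4.683% had a smaller difference in size than keratin 8. In Ki-Ras against control cells the corresponding share for keratin 8 was 1.493%, and between Ha-Ras and Ki-Ras cells 5.844%. Each of these keratin 8 differences was smaller than its SE of 0.18, so the shares do not show that keratin 8 was unusually stable.

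**Figure D3:**
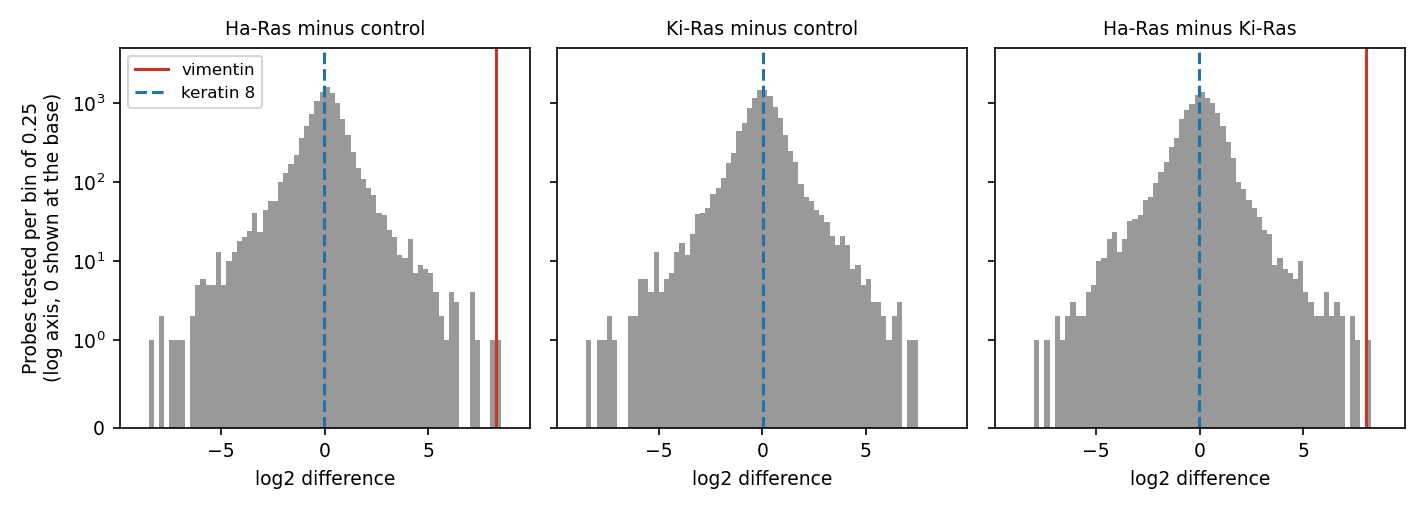
Number of tested probes (log axis, 0 at the base) by log2 difference in bins of 0.25, for each comparison of lines. The red line marks the fitted vimentin difference, at 8.26 and 8.04 where Ha-Ras cells are compared and not drawn between Ki-Ras and control cells, where it was undetected in both, and the dashed blue line marks keratin 8, between -0.06 and 0.01 throughout.

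Vimentin belonged to 544 of the 24350 gene probes that both Ha-Ras arrays, and no other array, detected. The Ha-Ras arrays also detected the most probes in all, 10092 and 10192 against 9245 to 9702 on the other arrays. For each of the 544 probes, the bound on its fold was computed over control and over Ki-Ras cells as for vimentin, and the smaller was taken. It was at least 16-fold for 14 probes and at least 64-fold for 2, vimentin being among the 2 with 187. These values are of the kind that chose the probe and are a description.

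The probes with the most similar pattern were sought over all 6 arrays. They were picked for their likeness to vimentin, so their patterns are a description and carry no test. Each probe was centred on the mean of its own control arrays, and likeness was the root mean square (RMS) difference from vimentin in log2 units, with 0 for an identical pattern. Of 10847 other probes, 3 lay within 1 unit of vimentin and 21 within 2, where the median was 4.76. Among mirror-image patterns, low in Ha-Ras cells and high in both other lines, 1 probe lay within 1 unit and 11 within 2. Keratin 8 lay at 4.80 from vimentin and at 4.75 from its mirror image, so its pattern was near neither.

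Probe GI_34147323-S was the most alike (RMS 0.62). Its signal was 4745.9 and 4301.6 intensity units in Ha-Ras cells, against 81.0 and 79.9 in Ki-Ras and 69.2 and 74.2 in control cells. As with vimentin, only the Ha-Ras arrays detected it. Probe GI_42794611-S followed (RMS 0.73), at 3738.1 and 3248.4 in Ha-Ras, 92.6 and 80.8 in Ki-Ras, and 59.8 and 57.7 in control cells. It differed from vimentin in that 1 of the 2 Ki-Ras arrays detected it.

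The nearest mirror image was GI_14589887-S (RMS 0.62). It stood at 57.8 and 70.5 intensity units in Ha-Ras cells, where neither array detected it, against 2278.2 and 2572.7 in Ki-Ras and 2317.3 and 3622.8 in control cells. Being low in Ha-Ras cells and high in both other lines is what picked this probe, so its pattern is a description. The next, GI_21536453-S (RMS 1.04), was at 86.7 and 72.0 in Ha-Ras cells, undetected, and at 5000.1 and 6700.7 in Ki-Ras and 2362.1 and 3849.9 in control cells. Its Ki-Ras values lay above its control values, which moved it further from a mirror image. The files do not pair these 4 IDs with gene names. Without background correction, with a larger offset, without Ha-Ras array B or without control array B, 3 of the 4 were still the nearest.

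**Figure D4:**
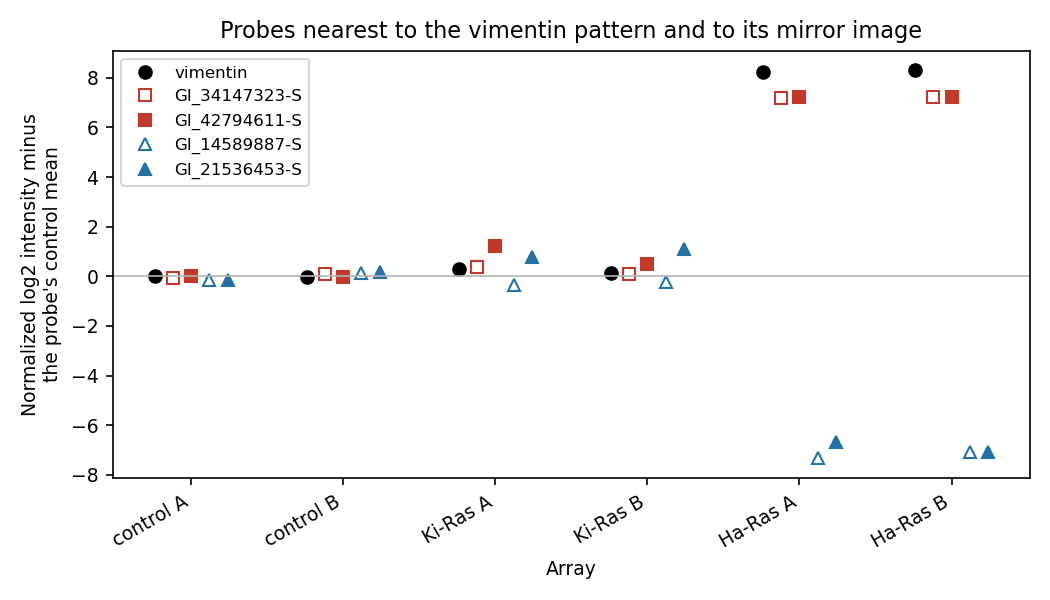
Normalized log2 intensity minus the probe's own control mean, on each of the 6 arrays (points are offset sideways for legibility), for vimentin (black), the 2 most alike probes (red squares) and the 2 nearest mirror images (blue triangles). On the Ha-Ras arrays vimentin stands at 8.21 and 8.31, the alike probes between 7.18 and 7.22, and the mirror images between -7.33 and -6.68.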

How the data were processed

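From each sample 500 ng of total RNA was amplified and biotin-labelled, per the labels' protocols, and measured on an Illumina bead array. The authors deposited mean intensity values per probe on a linear scale, without normalization per the series' design text, and a spread over beads, also as intensity. The deposited files also give the count of beads per probe and a detection score, a fraction from 0 to 1. BeadStudio 1.5.13 is named per the submitters' processing notes. The sources used here do not say if background was subtracted; the lowest signal was 38.7. The deposited bead spread is named an SD in the header; its values are small enough that a standard error of the bead mean is possible, which was not settled, and it entered no test. The deposited table of the whole series held the same intensity values (0 differing cells).

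For this report 4 bacterial control probes were left out. Background was corrected with nec of limma 3.58.1 (R 4.3.3; offset 16, detection p as 1 minus the score), then values were log2 transformed and quantile normalized. The 10848 probes with a detection p of 0.01 or less on both arrays of any line were tested. Group means were fitted with lmFit over all 6 arrays (3 residual and 7.1 prior degrees of freedom), followed by eBayes, two-sided, with Benjamini-Hochberg adjustment over all probes of a comparison. The procedure was tested on simulated data. Deviations of same-lettered samples correlated only weakly and with mixed sign over all probes, which cannot exclude a pairing by letter (closing section). The main fit used no block, and a fit with a replicate block was run as an alternative. No slide or date is named in the files. With 2 arrays a line, precision is limited by their number. The named probes are vimentin, keratin 8 and, by RMS difference, the 2 most alike and the 2 nearest mirror images. Further epithelial, mesenchymal and filament genes could not be measured, since 0 probe IDs matched the RefSeq table for GRCh38.p14. The probes, lists and tests were chosen with earlier results of these data known. Alternatives covered background, normalization, filter, detection threshold, arrays in the fit, replicate block and each array left out. Log2 of the deposited signals, without correction or normalization, was added after the data were seen.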

Additional observations from a re-analysis of the deposited data

How the results depend on the processing

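As its choice implies, vimentin was highest in Ha-Ras cells in every alternative run, and the gap depended mainly on the background. The log2 difference from control was 8.26 as reported, 6.66 without background correction, 6.93 with an offset of 50, 8.15 with cyclic loess, 8.38 with a common median and 6.90 on the deposited signals as they are. Against Ki-Ras cells it was 8.04 as reported and 6.53, 6.84, 7.78, 8.16 and 6.67 in the same order. With each array left out in turn it ran from 8.20 to 8.32 against control and from 7.96 to 8.14 against Ki-Ras cells. These are fitted differences from background values, not folds. Between Ki-Ras and control cells, both undetected, no difference is given under any setting. Vimentin has no value on the probes detected on all 6 arrays.

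Keratin 8 passed the test in no comparison under any alternative run. With an array left out its differences ran from -0.22 to 0.14 for Ha-Ras against control (adjusted p 0.393 to 0.864), from -0.16 to 0.18 for Ki-Ras against control (0.493 to 0.991) and from -0.22 to 0.13 for Ha-Ras against Ki-Ras (0.444 to 0.878), all by limma. With an array left out the numbers of called probes ran, in the same order, from 4378 to 5827, 4960 to 5659 and 5134 to 6623, against 5854, 5982 and 6473 as reported. Restricting the test to probes that all 6 arrays detected gave 3959, 4156 and 4470 calls. A common median changed the split of calls between Ha-Ras and Ki-Ras cells from 3428 higher and 3045 lower to 4439 and 2020. Alternatives for keratin 18 were not run, since its ID matched no probe. Deviations of same-lettered samples correlated at -0.173, -0.177 and 0.104 between lines. These weak values of mixed sign gave no common pairing by letter over all probes, but they cannot exclude one. Normalized keratin 8 itself was higher on array A than on array B in all 3 lines. With the replicate block the calls numbered 5681, 5791 and 6331, and keratin 8 kept its differences (limma's adjusted p = 0.859, 0.957 and 0.811). Bright probes are limited by the spread between 2 arrays, and vimentin outside the Ha-Ras line by background.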
